A study of Mus musculus with 12 samples.

Results

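The 9 genes described here belong to the pathway that turns ATP and NAD outside the cell into adenosine, or senses and clears these molecules, and were measured in CD4 T cells of the mouse kidney: Entpd1, Nt5e, Adora2a, Ada, Adk, P2rx7, Art2b, Cd38 and Slc29a1. They are the rows whose gene IDs carry these symbols, 9 of the 52632 genes of the table, and all 9 reached the mean of 1 FPKM that was required for testing. FPKM scales the fragments of a gene by transcript length and by the size of the library. The 12 libraries fall into 4 groups of 3, all on the C57BL6/J background: purchased WT mice and in-house CD4 Keap1 KO mice (KO, lacking Keap1 in CD4 T cells), each as control or after ischemia-reperfusion injury (IRI), in which blood flow to both kidneys was stopped for 30 min and the kidneys were taken 24 h later. Genotype and source of mice cannot be told apart. The labels do not say how Keap1 was deleted, whether the controls had sham surgery, or whether libraries of a group came from separate animals, and p-values therefore reflect only how much these libraries vary.

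ATP released by stressed or dying cells is a danger signal. The ectoenzyme encoded by Entpd1 (CD39) strips ATP and ADP to AMP, and that encoded by Nt5e (CD73) turns AMP into adenosine, which restrains T cells through the receptor encoded by Adora2a. Adenosine is taken into the cell by the equilibrative carrier encoded by Slc29a1, phosphorylated back to AMP by the kinase encoded by Adk, or deaminated to inosine by the enzyme encoded by Ada. ATP that is not broken down opens the P2X7 channel encoded by P2rx7. On mouse T cells, the ectoenzyme encoded by Art2b uses NAD to attach ADP-ribose to P2X7, which opens the channel without ATP and can kill the cell. The enzyme encoded by Cd38 breaks down the same NAD.

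Promoter sequences are shown for the gene that rose after IRI (Nt5e), for the 2 with the largest falls (P2rx7 and Art2b) and for Adk, which with Nt5e was called higher in KO on the values as deposited. They are RefSeq promoters of GRCm38.p6, from 250 bases before to 50 bases after an annotated start, written 5′ to 3′ on the strand of the gene. The Nt5e window is chr9:88327359-88327658 on the plus strand. The P2rx7 window (the upstream of its starts) is chr5:122643677-122643976 on the plus strand. The Art2b window is chr7:101581112-101581411 on the minus strand. The Adk window (the downstream of its starts) is chr14:21075902-21076201 on the plus strand. Capitals mark matches, on either strand, to the core of the antioxidant response element, TGACNNNGC, the element bound by the factor NRF2 that KEAP1 holds in check.
Nt5e: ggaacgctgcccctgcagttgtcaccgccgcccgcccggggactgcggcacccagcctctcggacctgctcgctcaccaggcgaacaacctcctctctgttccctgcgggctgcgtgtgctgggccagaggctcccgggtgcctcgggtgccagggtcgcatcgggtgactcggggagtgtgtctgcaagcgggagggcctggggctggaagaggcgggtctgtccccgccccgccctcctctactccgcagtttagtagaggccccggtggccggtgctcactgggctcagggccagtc
P2rx7: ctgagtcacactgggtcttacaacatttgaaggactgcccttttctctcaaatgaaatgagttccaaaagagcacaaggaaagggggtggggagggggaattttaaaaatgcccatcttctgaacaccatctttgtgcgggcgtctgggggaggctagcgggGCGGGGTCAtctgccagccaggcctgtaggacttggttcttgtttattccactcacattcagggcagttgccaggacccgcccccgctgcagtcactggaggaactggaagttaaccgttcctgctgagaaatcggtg
Art2b: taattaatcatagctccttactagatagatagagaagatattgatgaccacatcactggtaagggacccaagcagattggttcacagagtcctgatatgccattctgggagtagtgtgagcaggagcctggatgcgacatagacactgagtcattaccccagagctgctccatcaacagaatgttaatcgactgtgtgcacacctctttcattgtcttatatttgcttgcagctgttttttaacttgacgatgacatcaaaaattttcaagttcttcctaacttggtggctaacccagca
Adk: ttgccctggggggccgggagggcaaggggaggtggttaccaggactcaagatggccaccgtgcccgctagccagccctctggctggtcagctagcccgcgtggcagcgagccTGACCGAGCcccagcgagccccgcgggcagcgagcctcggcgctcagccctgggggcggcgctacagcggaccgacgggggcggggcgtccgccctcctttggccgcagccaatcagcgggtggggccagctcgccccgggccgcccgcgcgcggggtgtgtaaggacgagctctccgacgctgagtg

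The Adk window held TGACCGAGC from position -138 relative to the start, and the P2rx7 window held GCGGGGTCA from -88, a match on the opposite strand. No match was found in the windows printed for Nt5e and Art2b. For Adk and for P2rx7 a further window, not printed, held no match to this core. This core is common, present in 12.4% of 32851 promoter windows of the same length. Over the 18 windows of the 8 genes with an entry in the table, the only other matches to it were in 2 windows of Slc29a1. The hypoxia response core ACGTG, found in 19.6% of all windows, was matched in 3 windows of Slc29a1, and neither the cAMP response element TGACGTCA (1.79% of all windows) nor the T-box element AGGTGTGA (1.28%) was matched in any of the 18. A match is a run of letters and shows no binding.

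Several facts of the libraries bear on all values. Their summed FPKM ran from 739969 to 2089551, between 17.7% and 63.1% of that sum came from 3 genes, and WT control 3, WT IRI 3 and KO control 1 stood apart in an earlier look at these data. As deposited, the median gene stood above its WT level in KO by 0.29 on the log2 scale, so differences between genotypes are also given after dividing each library by its median ratio to the geometric mean of the genes (rescaled values), which brought that median to 0.04. Keap1 was read at 4.59 to 9.87 FPKM in all 12 libraries, which is no check of a deletion whose extent the labels do not give, while Nqo1, a known NRF2 target, was at 3.38 to 7.75 FPKM in every KO library and at most 0.543 in every WT library. The defining markers of the sorted cell were present throughout: the 9 listed CD4 T cell genes summed to 1006 to 1133 FPKM in WT controls, 448 to 542 in WT after IRI, 1304 to 1940 in KO controls and 897 to 1199 in KO after IRI. Of the proximal tubule list the sum was at most 25.7 FPKM in any library.

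Averaged over both genotypes, IRI came with a change in the balance of the ectoenzymes, with more Nt5e mRNA and less Entpd1 mRNA, and by a fall of the ATP and NAD sensing pair P2rx7 and Art2b, in a pattern that was alike in sign in WT and KO. In WT control, P2rx7 had the highest mean of the 9 genes, at 48.9 ± 3.79 FPKM (SD, n = 3), followed by Entpd1 at 26.7 ± 3.4, whereas Nt5e was the sixth at 10.9 ± 0.635. In WT IRI, Nt5e had the highest mean, at 23.6 ± 5.20 FPKM, while P2rx7 was the fifth at 9.81 ± 2.04 and Art2b the eighth at 1.28 ± 0.698. In the WT control order, P2rx7 stood apart from Entpd1 in all libraries, but neighbours among Entpd1, Art2b, Adora2a and Adk overlapped. In WT IRI, Nt5e, Adk and Adora2a followed each other without overlap, while neighbours among Adora2a, Entpd1, P2rx7 and Slc29a1 overlapped. P2rx7 also had the highest mean in KO controls, at 48.4 ± 18.4 FPKM, and Nt5e in KO after IRI, at 42.7 ± 10.5, in both cases with a range that overlapped that of Adk, the next gene.

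**Figure D1:**
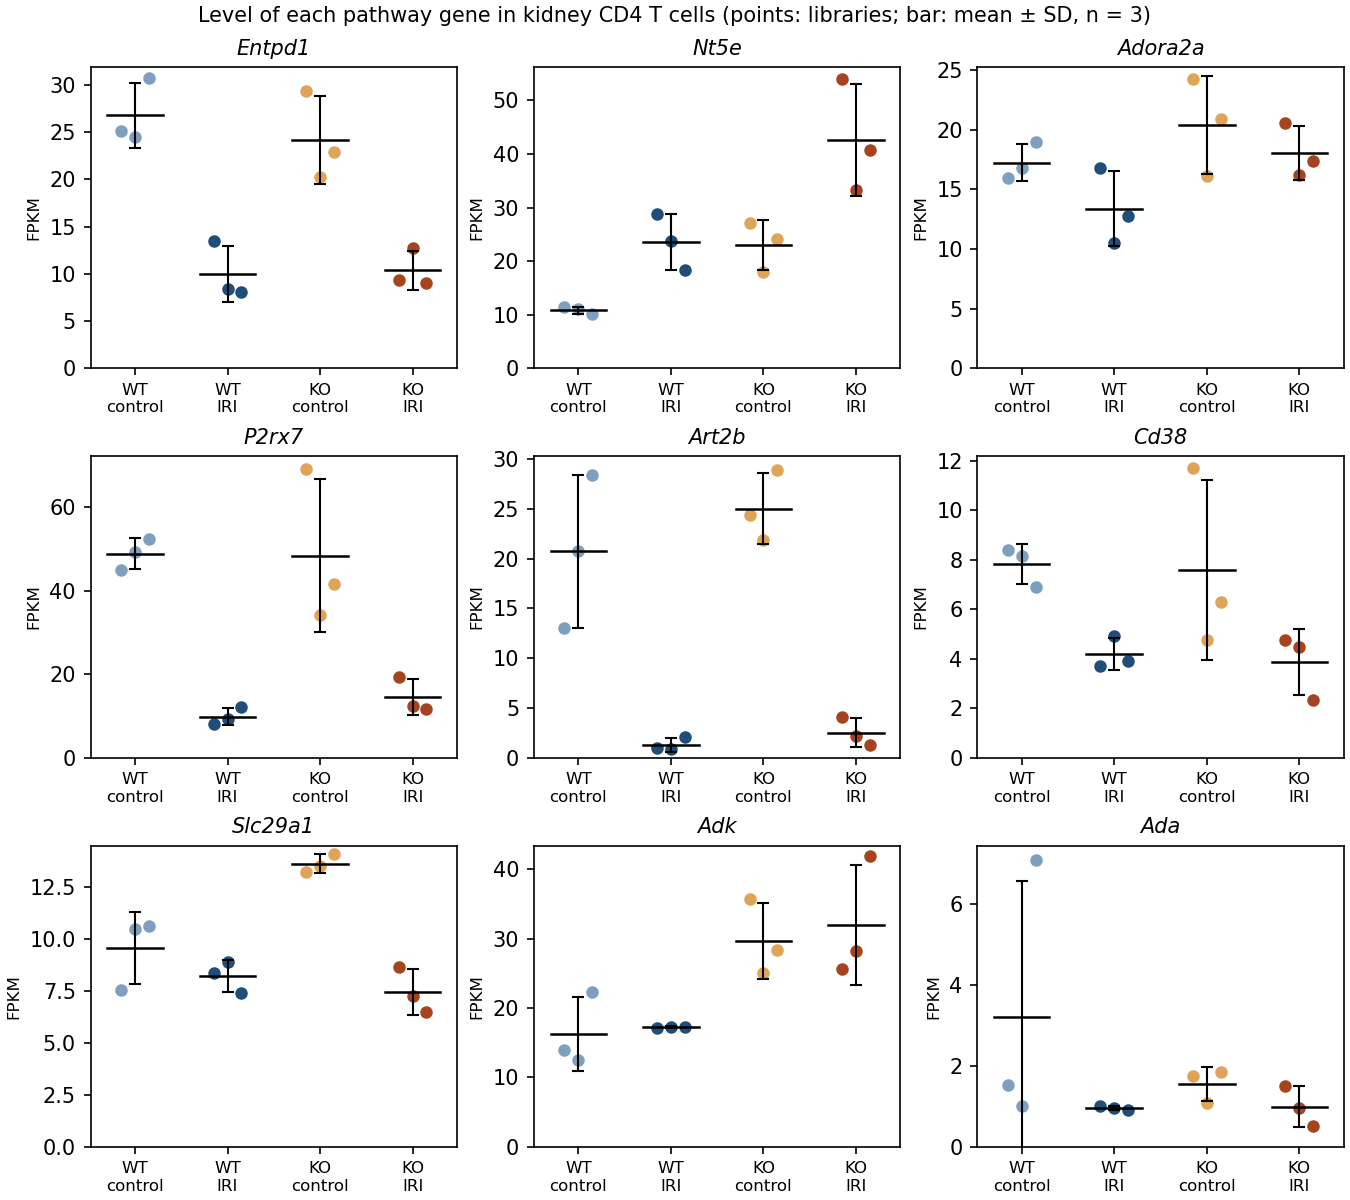
Level of the 9 genes in each library (points), in FPKM on linear axes that start at 0, by group (WT control, WT IRI, KO control, KO IRI); horizontal bars are means and vertical bars the SD (n = 3), which for Ada in WT controls extends below the axis. Nt5e is higher after IRI in both genotypes, Entpd1, P2rx7 and Art2b are lower, and the wide Ada bar comes from WT control 3 at 7.09 FPKM.

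By limma over all 19288 tested genes, with p-values adjusted by the Benjamini-Hochberg method and a threshold of 0.05, 1 of the 9 genes rose and 3 fell in WT IRI against WT control, where 1.19% of all genes rose and 2.59% fell. In KO IRI against KO control, 3 of the 9 fell and 0 rose, against 0.539% and 0.327% of all genes, and 6 of the 9 had an unadjusted p under 0.05, as did 14% of all genes. Rescaled, 3 fell and 1 rose there, against 1.1% and 0.959% of all genes. Averaged over genotype, 1 rose and 5 fell, against 3.01% and 6.03%. The median log2 difference of the 9 was -0.77 in WT and -0.78 in KO, beside medians of all tested genes of 0.000291 and -0.02. With the 6 IRI libraries set against the 6 controls, groups did not overlap for 3 of the 9 genes, all 3 lower after IRI, where 2.19% of all genes were lower and 1.46% higher in this way. Groups did not overlap for 5 of the 9 genes in WT, 1 higher after IRI and 4 lower, where 9.28% and 14.4% of all genes did so. In KO they did not overlap for 6, 1 higher and 5 lower, where 8.21% and 9.15% of all genes did so. All differences below are of log2(FPKM + 1), a scale on which changes of low values appear smaller than they are.

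Entpd1 was at 25.1, 24.5 and 30.7 FPKM in the 3 WT control libraries and at 13.5, 8.44 and 8.11 in WT after IRI. In KO control it was at 29.3, 20.2 and 22.9 FPKM and in KO after IRI at 9.38, 12.7 and 9.01. Every IRI library was below every control library of either genotype. The mean FPKM was 2.67-fold lower after IRI in WT and 2.33-fold lower in KO, and the log2 difference was -1.36 ± 0.23 (SE; adjusted p = 0.0104) in WT and -1.14 ± 0.23 (adjusted p = 0.0493) in KO. The WT call was lost without WT IRI 2 (adjusted p = 0.0513). The KO call was lost, with an adjusted p between 0.0506 and 0.185, on leaving out any 1 library except WT IRI 1 and KO control 2. The average over genotype, -1.25 ± 0.16 (adjusted p = 0.00127), passed whichever library was left out.

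Nt5e moved the other way. It was at 11.4, 11.1 and 10.2 FPKM in WT controls and at 28.7, 23.7 and 18.3 in WT after IRI. In KO control it was at 27.0, 17.9 and 24.1 FPKM and in KO after IRI at 54.0, 33.3 and 40.7. Within each genotype the groups did not overlap, while WT IRI and KO control covered much the same range as deposited. Rescaled, Nt5e was at 24.3 to 29.2 in WT IRI and at 17.9 to 20.3 in KO control, without overlap. It rose after IRI in WT by 1.03 ± 0.23 (adjusted p = 0.0354). The WT call was lost, with an adjusted p between 0.0519 and 0.117, without any 1 of WT control 1, 2 or 3, WT IRI 1 or 2, KO control 3 or KO IRI 3. In KO the difference was 0.85 ± 0.23 (adjusted p = 0.119) as deposited and 0.95 ± 0.15 (adjusted p = 0.0121) rescaled. The average over genotype was 0.94 ± 0.16 (adjusted p = 0.00555), and it passed whichever library was left out.

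The ratio of Nt5e to Entpd1 within a library does not depend on how libraries are scaled. It was 0.454, 0.452 and 0.332 in WT controls, 0.923, 0.887 and 1.05 in KO controls, 2.14, 2.81 and 2.26 in WT after IRI, and 5.75, 2.62 and 4.52 in KO after IRI. All IRI libraries were above all control libraries, and within the controls all KO libraries were above all WT libraries. After IRI the 2 genotypes overlapped, since KO IRI 2 lay below WT IRI 2. These are levels of mRNA per transcript length, not amounts or activities of the enzymes.

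Adora2a, the adenosine receptor gene best known in T cells, did not pass the test after IRI. It was at 16.0, 16.8 and 19.0 FPKM in WT controls, at 16.8, 10.5 and 12.8 in WT after IRI, at 24.3, 16.1 and 20.9 in KO controls and at 20.6, 16.2 and 17.4 in KO after IRI. The groups overlapped in both genotypes, and the log2 difference averaged over genotype was -0.26 ± 0.14 (adjusted p = 0.311). Of the other adenosine receptors, only Adora3 was high enough to be tested, and it passed in no comparison.

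Among the genes that clear adenosine, Slc29a1 fell when both genotypes were averaged. It was at 7.56, 10.5 and 10.6 FPKM in WT controls and 8.38, 8.89 and 7.40 in WT after IRI, groups that overlapped. In KO control it was at 13.3, 13.5 and 14.1 FPKM and in KO after IRI at 8.68, 7.26 and 6.50, groups that did not. The log2 difference was -0.19 ± 0.17 (adjusted p = 0.643) in WT, -0.80 ± 0.17 (adjusted p = 0.0592) in KO and -0.49 ± 0.12 (adjusted p = 0.0297) on average. The average lost its call, with an adjusted p between 0.0558 and 0.0705, without any 1 of WT control 2 or 3, WT IRI 1, KO control 1 or 3, or KO IRI 2 or 3. The difference between the genotypes in this response was -0.61 ± 0.24, which did not pass (unadjusted p = 0.0283, adjusted p = 0.999).

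Neither intracellular enzyme passed the test after IRI. Adk was at 13.9, 12.5 and 22.4 FPKM in WT controls, 17.1, 17.3 and 17.3 in WT after IRI, 35.8, 25.0 and 28.4 in KO controls and 25.7, 28.3 and 41.9 in KO after IRI. Its log2 difference averaged over genotype was 0.10 ± 0.17 (adjusted p = 0.755). Ada had the lowest mean of the 9 in every group. Its libraries overlapped those of the next gene, which was Cd38 in WT controls and Art2b after IRI in both genotypes. Ada was at 1.53, 1.00 and 7.09 FPKM in WT controls and 1.01, 0.964 and 0.908 in WT after IRI. In KO it was at 1.75, 1.08 and 1.86 FPKM in controls and 1.52, 0.952 and 0.511 after IRI. Its average difference of -0.60 ± 0.32 (adjusted p = 0.297) included WT control 3, the one library above 2 FPKM.

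P2rx7 fell after IRI in both genotypes. It was at 44.9, 49.3 and 52.5 FPKM in WT controls and at 8.05, 9.34 and 12.0 in WT after IRI, a 4.98-fold lower mean. In KO control it was at 69.1, 34.3 and 41.6 FPKM and in KO after IRI at 19.4, 12.4 and 11.8, a 3.33-fold lower mean. No IRI library of either genotype reached any control library. The log2 difference was -2.22 ± 0.27 (adjusted p = 0.00293) in WT, where no left-out library ended the call. In KO it was -1.64 ± 0.27 (adjusted p = 0.0259), a call lost, with an adjusted p between 0.0514 and 0.125, without any 1 of WT control 1 or 2, WT IRI 2, KO control 1 or 3, or KO IRI 2 or 3. The 2 falls differed by 0.58 ± 0.39, which did not pass (adjusted p = 0.999).

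Art2b showed the largest fall of the 9 genes, in WT and in KO. It was at 13.1, 20.8 and 28.4 FPKM in WT controls and at 0.936, 0.817 and 2.08 in WT after IRI. In KO control it was at 24.4, 21.9 and 28.9 FPKM and in KO after IRI at 4.08, 2.14 and 1.23. The highest IRI library, KO IRI 1, lay below the lowest control library, WT control 1. The mean FPKM was 16.2-fold lower in WT and 10.1-fold lower in KO, and the log2 difference was -3.23 ± 0.35 (adjusted p = 0.00197) and -2.98 ± 0.35 (adjusted p = 0.00566), calls that no left-out library ended. In a fit of the KO groups alone, limma's adjusted p for Art2b was 0.140. Art2b has a near-identical neighbour, Art2a-ps, and how reads were split between them is not given, so its level is uncertain. Art2a-ps was at 5.84 to 6.17 FPKM in WT controls and 4.21 to 5.0 in WT after IRI, and at 8.89 to 13.1 in KO controls and 3.13 to 8.70 in KO after IRI, lower without overlap in both genotypes as deposited and overlapping in both once rescaled. It did not pass (WT difference -0.34 ± 0.27, adjusted p = 0.592; KO -0.90 ± 0.27, unadjusted p = 0.00779, adjusted p = 0.168; average -0.62 ± 0.19, adjusted p = 0.0778). The ratio of Art2b to Art2a-ps was 1.87 to 4.87 in the control libraries and 0.194 to 0.468 in the IRI libraries.

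Cd38 passed the test, as lower after IRI, when the genotypes were averaged. It was at 8.38, 8.16 and 6.88 FPKM in WT controls, 3.71, 4.91 and 3.89 in WT after IRI, 11.7, 4.77 and 6.28 in KO controls and 4.76, 4.48 and 2.35 in KO after IRI. Within each genotype the groups did not overlap, by a narrow margin in KO. The log2 difference was -0.77 ± 0.30 (adjusted p = 0.198) in WT, -0.78 ± 0.30 (adjusted p = 0.272) in KO and -0.78 ± 0.21 (adjusted p = 0.0451) on average. The average lost its call, with an adjusted p between 0.0512 and 0.101, on leaving out any 1 library except KO control 2. B cells also express Cd38. The sum of 6 B cell genes was 12.7 to 49.6 FPKM in WT controls and 5.59 to 15.3 in WT after IRI. In KO it was 23.3 to 87.6 FPKM in controls and 5.15 to 9.26 after IRI. The highest sum was in KO control 1, which also had the highest Cd38 as deposited. Rescaled, Cd38 was highest in WT control 1, at 9.17, and KO control 1 was at 8.76. The 6 CD8 T and NK cell genes summed to 20.6 to 39.5 FPKM in WT controls and 12.7 to 29.7 in WT after IRI. In KO they summed to 29.0 to 55.3 FPKM in controls and 8.47 to 18.0 after IRI. For 6 dendritic cell genes the sums were 10.7 to 15.4 and 9.71 to 11.2 FPKM in WT, in the same order. In KO they were 17.6 to 27.0 and 9.54 to 15.7 FPKM. The part of these cell types in the Cd38 result was not tested.

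**Figure D2:**
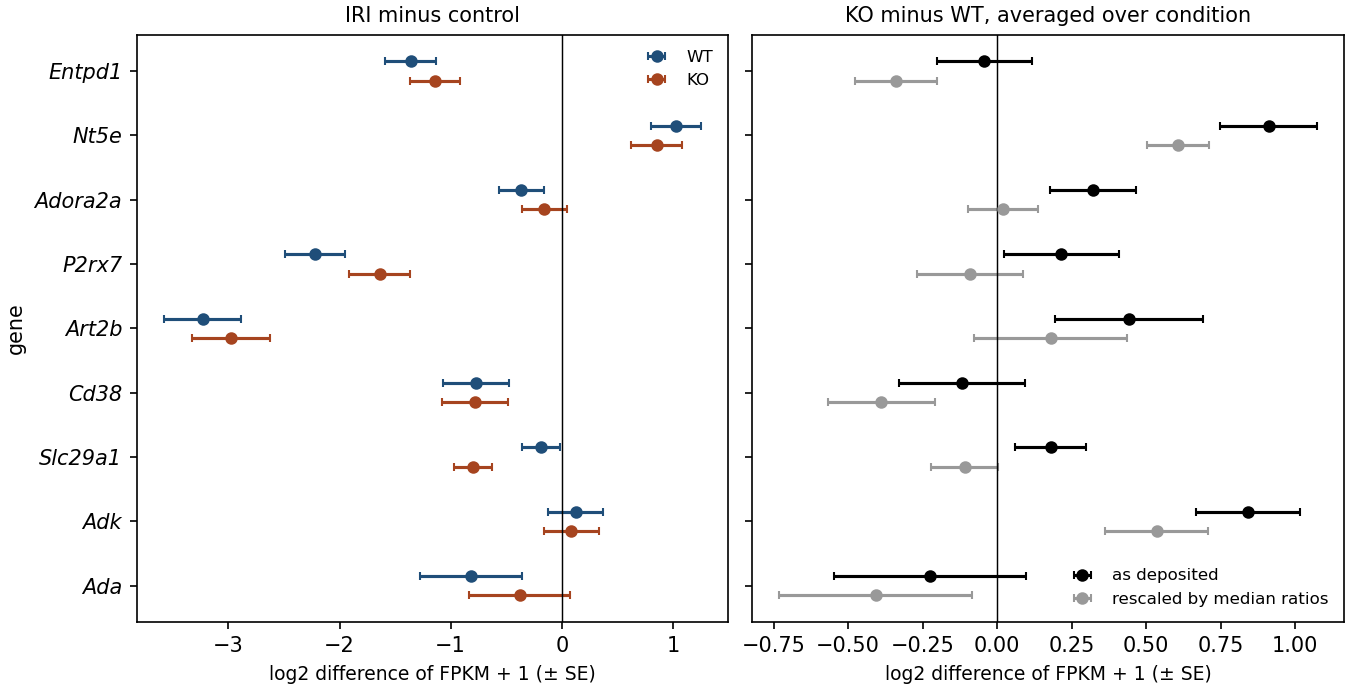
Log2 differences of FPKM + 1 with their SE for the 9 genes, IRI minus control in each genotype (left) and KO minus WT averaged over condition, as deposited and rescaled by median ratios (right). On the left Nt5e is the only gene well to the right of 0 and Art2b the farthest to the left; on the right Nt5e and Adk lie farthest above 0 on both scales.

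Marker sums of other T cell states and cell types also differed between control and IRI libraries. A list of 6 tissue-resident T cell genes summed to 324 to 329 FPKM in WT controls and 91.7 to 117 in WT after IRI, and to 286 to 399 in KO controls and 176 to 194 in KO after IRI, and 4 of the 6 (Cxcr6, Itga1, Xcl1 and Zfp683) fell in each genotype. Of all genes, limma called 2.59% lower after IRI in WT and 0.539% in KO. Cxcr6, of the resident list, was among the 3 genes whose pattern over the 12 libraries was closest to Entpd1. A list of 6 regulatory T cell genes summed to 109 to 141 FPKM in WT controls and 158 to 199 in WT after IRI. In KO it summed to 162 to 215 FPKM in controls and 232 to 425 after IRI, with 2 of 6, Ctla4 and Ikzf4, rising in each genotype. The share of all genes called higher after IRI was 1.19% in WT and 0.327% in KO. Ctla4 carried the rise of the WT sum, from 30.5 to 41.1 FPKM in controls to 82.1 to 128 after IRI, while Ikzf2 fell on average over genotype (-0.86 ± 0.24, adjusted p = 0.0464) and Foxp3, Il2ra and Tnfrsf18 did not pass. Foxp3, the defining factor of these cells, was at 6.89 to 9.25 FPKM in WT controls and 7.41 to 12.6 after IRI, and at 12.7 to 14.1 in KO controls and 7.87 to 29.7 after IRI. The part of these states in the changes of Entpd1, Nt5e, P2rx7 and Art2b was not tested, and in bulk RNA fewer cells of a type and less RNA per cell cannot be told apart. Macrophage genes, 8 in the list, summed to 78.9 to 168 FPKM in WT controls, 96.2 to 127 in WT after IRI, 154 to 329 in KO controls and 88.4 to 186 in KO after IRI, and 6 neutrophil genes to 4.03 to 7.77, 17.8 to 38.4, 2.61 to 4.83 and 3.44 to 32.9 in the same order, with S100a8 and Retnlg at 0 in at least 1 library of each control group. The part of these cells was not tested either.

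Without the 3 libraries that stood apart, the averaged differences after IRI were -1.07 ± 0.17 for Entpd1 (adjusted p = 0.0215), 1.06 ± 0.17 for Nt5e (adjusted p = 0.0230), -1.83 ± 0.17 for P2rx7 (adjusted p = 0.00531) and -3.11 ± 0.27 for Art2b (adjusted p = 0.00463), all still past the threshold. Those of Slc29a1 (-0.43 ± 0.14, adjusted p = 0.124) and Cd38 (-0.63 ± 0.20, adjusted p = 0.129) no longer passed. Within one genotype, Art2b passed in both and P2rx7 in WT, while Entpd1 and Nt5e passed in neither.

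Genes of the T cell itself also differed with IRI, to unequal degrees. In WT, Cd4 was at 85.7 to 101 FPKM in controls and 49.7 to 70.7 after IRI and did not pass (-0.66 ± 0.29, adjusted p = 0.253). Cd3g, a chain of the T cell receptor complex, fell from 215 to 256 FPKM to 45.9 to 58.9 (-2.15 ± 0.21, adjusted p = 0.00139). The 9 CD4 T cell genes were therefore each used as the denominator of a ratio within the library. Nt5e was higher after IRI without overlap against all 9 in both genotypes, and Art2b was lower without overlap against all 9 in both. The sum of these 9 denominators was itself lower after IRI, in WT and in KO. A falling denominator raises a ratio, so this measure favoured a rise of Nt5e and worked against a fall of the other genes. The Nt5e ratios are therefore no independent check of its rise. P2rx7 was lower without overlap against all 9 in WT and against 8 in KO, but the margin depended on the gene chosen. Against Cd4 it was 0.496 to 0.524 in WT controls and 0.114 to 0.242 in WT after IRI. Against Cd3g it was 0.205 to 0.209 and 0.152 to 0.205, and in KO 0.0997 to 0.202 and 0.102 to 0.129, with overlap. Entpd1 held no single direction: in WT its ratio was lower without overlap against 4 of the 9, higher against Cd3g and overlapping for 4, and in KO it was lower against 3 and overlapping for 6. Cd38 in WT was lower against 1, higher against 3 and overlapping for 5, and in KO it overlapped for all 9. Against P2rx4, which encodes another ATP-gated channel, P2rx7 was 1.92 to 3.00 times as high in WT controls and 0.461 to 0.776 times in WT after IRI, and 1.53 to 2.35 times in KO controls and 0.914 to 0.958 times in KO after IRI.

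**Figure D3:**
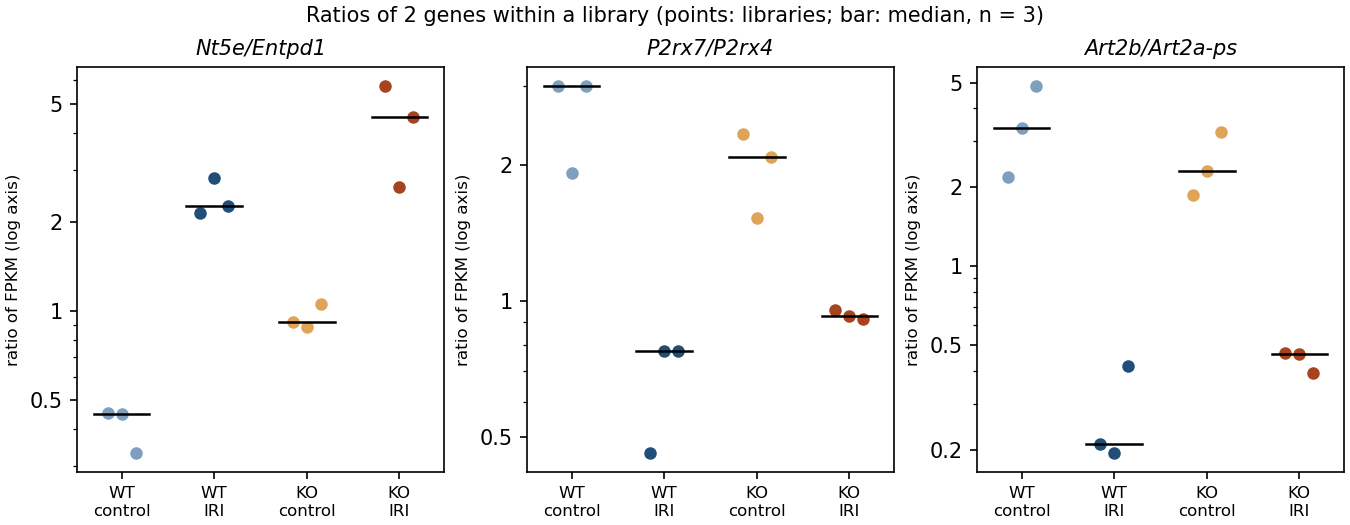
Ratios of FPKM within each library (points) on log axes, with the median of each group as a bar (n = 3), for Nt5e to Entpd1, P2rx7 to P2rx4 and Art2b to Art2a-ps. Nt5e to Entpd1 lies at or below 1.05 in all controls and at or above 2.14 after IRI, P2rx7 to P2rx4 is below 1 in every IRI library, and Art2b to Art2a-ps is at most 0.468 there.

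Between genotypes, Nt5e and, on the values as deposited, Adk were higher in KO. Averaged over condition, 2 of the 9 genes were called higher in KO and 0 lower as deposited, where 11.9% of all genes were called higher and 1.76% lower, and 1 was called higher and 0 lower rescaled, where 0.378% and 0.171% were. Nt5e was higher in KO by 0.91 ± 0.16 (adjusted p = 0.0232) as deposited and by 0.61 ± 0.10 (adjusted p = 0.0407) rescaled. Adk, the adenosine kinase gene, was higher by 0.84 ± 0.17 (adjusted p = 0.0282) as deposited, and its rescaled difference of 0.54 ± 0.17 did not pass (adjusted p = 0.119). Every KO library had more Adk than any WT library as deposited, 25.0 to 41.9 against 12.5 to 22.4 FPKM, but the groups overlapped after rescaling. This was the only gene of the 9 whose 6 KO libraries did not overlap with the 6 of WT, which 3.74% of all genes showed in this direction.

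The as-deposited calls between genotypes depended on single libraries. The Nt5e call was lost, with an adjusted p between 0.0507 and 0.0676, without any 1 of WT control 1 or 2, KO control 1 or 3, or KO IRI 1. The Adk call was lost, with an adjusted p between 0.0507 and 0.0734, without any 1 of WT control 1 or 2, WT IRI 3, KO control 1 or 3, or KO IRI 1 or 3. With WT control 3, WT IRI 3 and KO control 1 left out together, the difference was 0.75 ± 0.17 for Nt5e (adjusted p = 0.136) and 0.90 ± 0.16 for Adk (adjusted p = 0.117). The CD4 T cell genes were themselves called higher in KO on average over condition. By the test 8 of the 9 were so as deposited (11.9% of all genes). Once rescaled, 2 of the 9, Cd4 and Cd5, were (0.378% of all genes). As a ratio to the 9 CD4 T cell genes, Nt5e in KO controls lay without overlap above WT for 6, below for Cd4 alone and overlapping for 2. After IRI it lay below WT for 2 and overlapped for 7.

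Within one condition limma called 0 of the 9 genes. In controls the KO against WT difference was 1.00 ± 0.23 for Nt5e and 0.86 ± 0.25 for Adk (adjusted p = 0.192 for each), where 0.0259% of all genes were called higher and 0 lower, and 3 of the 9 had an unadjusted p under 0.05, as did 20.9% of all genes. After IRI it was 0.82 ± 0.23 for Nt5e (adjusted p = 0.111) and 0.82 ± 0.25 for Adk (adjusted p = 0.122), where 0.0518% and 0.00518% were called, and 2 of the 9 had an unadjusted p under 0.05, as did 22.4% of all genes. Both counts are near the share of all genes. The KO libraries lay wholly above WT for 3 genes in controls (20.1% of all genes did, and 3.69% lay below) and for 2 after IRI (24.9% did, and 7.49% lay below). The averaged differences of P2rx7 and Slc29a1 changed sign on rescaling. That of Adora2a kept its sign (0.32 as deposited and 0.019 rescaled) and changed it only under other scalings. Entpd1, Ada, Art2b and Cd38 did not pass on either scale. The interaction of genotype and IRI was called for 0 of the 9, where 0 genes were called higher and 0.00518% lower, and 1 of the 9 had an unadjusted p under 0.05, as did 3.35% of all genes.

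Around these 9 genes, 55 further genes of purine and NAD handling were listed, of which 53 were found and 30 tested. In WT, 3 rose and 1 fell after IRI (1.19% and 2.59% of all genes did), and in KO 0 did, with 7 of the 30 at an unadjusted p under 0.05 (14% of all genes). Averaged over genotype 3 rose and 2 fell (3.01% and 6.03% of all genes). The median log2 difference of the 30 was -0.20 on average, beside -0.00349 for all genes.

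The genes that rose after IRI belonged to different arms. P2ry14, a receptor for UDP-glucose, was at 1.16 to 1.80 FPKM in WT controls and 5.42 to 6.58 in WT after IRI, and at 1.07 to 1.89 in KO controls and 3.00 to 5.14 in KO after IRI. Its average difference was 1.25 ± 0.16 (adjusted p = 0.00112). Nmrk1, a kinase that makes an NAD precursor from nicotinamide riboside, was at 2.09 to 3.02 FPKM in WT controls, 6.0 to 11.2 in WT after IRI, 2.82 to 4.32 in KO controls and 7.68 to 11.2 in KO after IRI (average difference 1.27 ± 0.17, adjusted p = 0.00161). Dpp4, a surface peptidase also known as CD26, was at 7.04 to 14.8 FPKM in WT controls and 31.5 to 35.1 in WT after IRI, and at 16.7 to 21.3 in KO controls and 20.3 to 31.9 in KO after IRI, where the groups overlapped. Its average difference was 1.01 ± 0.18 (adjusted p = 0.00675). By limma it passed in WT (1.56 ± 0.25, adjusted p = 0.0094) and not in KO (0.46 ± 0.25, adjusted p = 0.456). The difference between these responses, -1.10 ± 0.36, did not pass (unadjusted p = 0.0111, adjusted p = 0.999).

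Of the genes that fell, Slc28a2, a sodium-coupled nucleoside carrier, was at 32.5 to 43.1 FPKM in WT controls and 13.6 to 17.3 in WT after IRI, and at 28.3 to 58.1 in KO controls and 22.1 to 34.4 in KO after IRI (average difference -0.94 ± 0.20, adjusted p = 0.0150). Nadsyn1, the NAD synthetase, was at 5.95 to 6.64 FPKM in WT controls, 1.29 to 4.33 in WT after IRI, 5.47 to 7.49 in KO controls and 4.40 to 5.84 in KO after IRI (average difference -0.76 ± 0.20, adjusted p = 0.0373). In KO the groups overlapped for both genes, and limma called neither (adjusted p = 0.259 for Slc28a2 and 0.603 for Nadsyn1). In WT, Nadsyn1 passed (adjusted p = 0.0458) and Slc28a2 as deposited did not (adjusted p = 0.0533). The abundant P2rx4 (average difference -0.47 ± 0.18, adjusted p = 0.142), the channel gene Panx1 through which ATP can leave cells (-0.69 ± 0.26, adjusted p = 0.136), and the ectoenzyme genes Enpp1 (0.50 ± 0.17, adjusted p = 0.105; rescaled adjusted p = 0.0167) and Acpp (0.44 ± 0.21, adjusted p = 0.240) did not pass as deposited.

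Between genotypes 3 of the 30 were called higher in KO on average and 0 lower as deposited, a share no larger than the 11.9% of all genes called higher. Rescaled, 1 of the 30 was called higher, where 0.378% of all genes were. Nt5c, a nucleotidase inside the cell, was at 16.5 to 31.0 FPKM over the WT libraries and 36.6 to 65.7 over the KO libraries, with a difference of 1.00 ± 0.16 (adjusted p = 0.0213) as deposited and 0.69 ± 0.11 (adjusted p = 0.0350) rescaled. Slc29a3, a carrier of the same family as Slc29a1, differed by 0.73 ± 0.19 (adjusted p = 0.0390; rescaled adjusted p = 0.121), and Nampt, the rate-limiting enzyme of NAD salvage, by 0.62 ± 0.17 (adjusted p = 0.0444; rescaled adjusted p = 0.230).

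**Figure D4:**
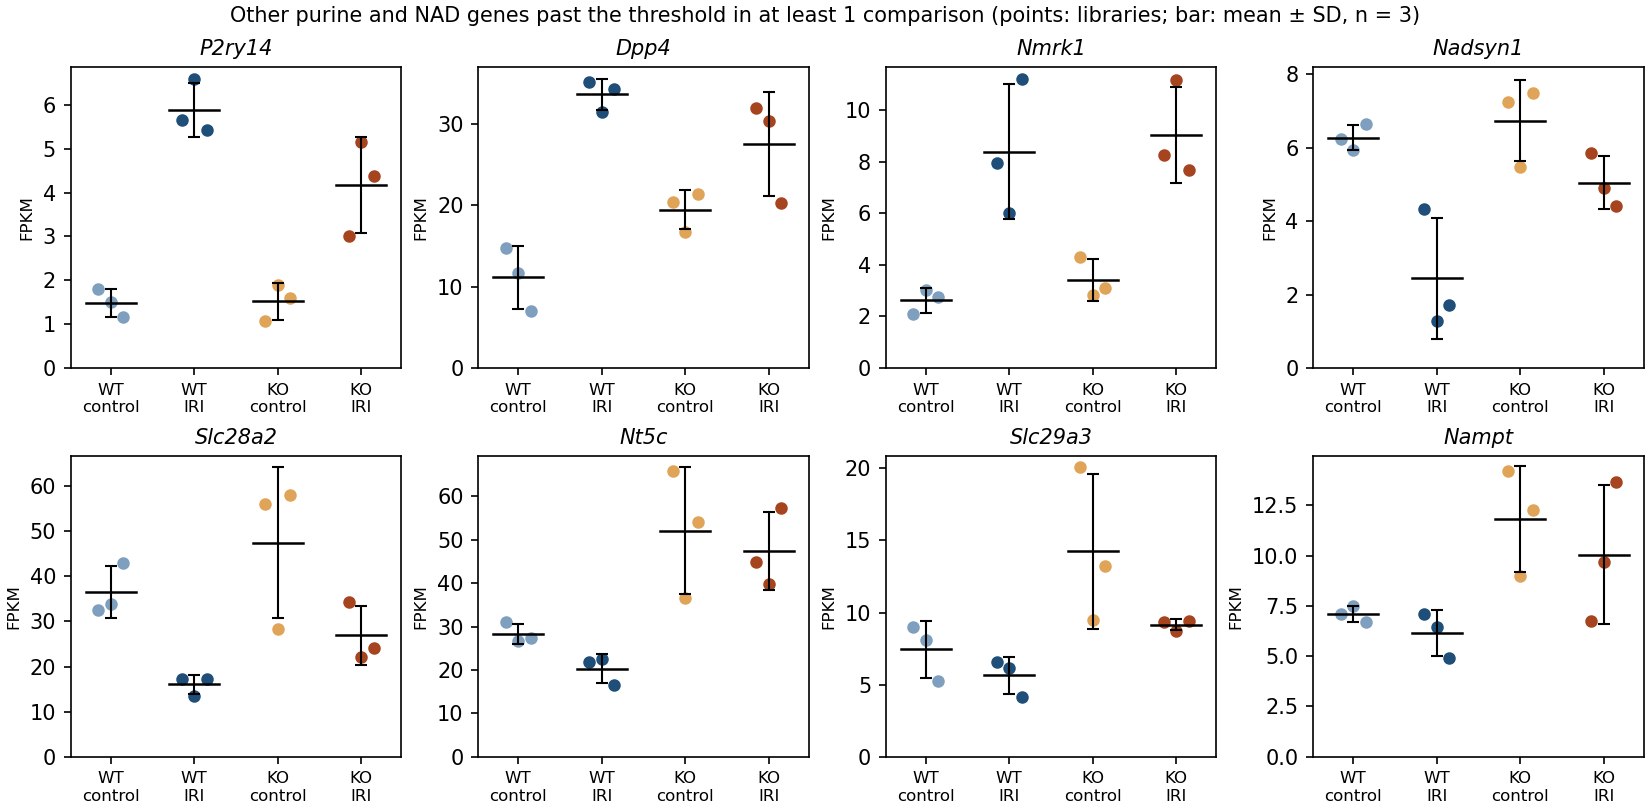
FPKM in each library (points) with the mean and SD (n = 3) for the 8 other purine and NAD genes that passed the threshold in at least 1 comparison, on linear axes from 0. P2ry14, Dpp4 and Nmrk1 are higher in WT after IRI than in WT controls without overlap, Slc28a2 and Nadsyn1 are lower, and Nt5c lies above 36 FPKM in all KO libraries and at or below 31.0 FPKM in all WT libraries.

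The patterns of the 9 genes over the 12 libraries can be described by correlations of log2(FPKM + 1), over points that share the 4 groups and their scaling. P2rx7 and Art2b had a Pearson r of 0.967, and Entpd1 had an r of 0.904 with P2rx7 and of 0.903 with Art2b, while Nt5e with Entpd1 gave -0.629. Among all tested genes with a gene name, P2rx7 was closest to Asb2 (r = 0.982), Slc9a9 (0.981) and Eya2 (0.977), and Art2b to Ifi208 (0.980), Eya2 (0.970) and Itgal (0.968). Entpd1 was closest to Slamf7 (0.966), Hmmr (0.955) and Cxcr6 (0.955), and Nt5e to Skil (0.966), Pim1 (0.961) and Btg1 (0.956). For Adora2a the closest were Bckdk (0.964), Ints4 (0.962) and Nt5dc3 (0.948), for Adk Ercc3 (0.954), Usp33 (0.948) and Ptbp1 (0.948), and for Slc29a1 Ube2l6 (0.918), Slc35c2 (0.918) and Spice1 (0.910). Cd38 was closest to Tmem273 (0.918), Ercc6l2 (0.913) and Gzma (0.909), and Ada to Oas1c (0.913), Klk1b27 (0.908) and Cep164 (0.907).

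By the GRCm38 annotation all 9 are protein-coding. Annotated genes overlap 5 of them, and none of these with a value in the table exceeded 9.42 FPKM, the level reached by Gm26372 inside Adk. Antisense genes lie in Cd38 (Gm16015, at most 1.25 FPKM) and Slc29a1 (Gm17080, at most 2.09 FPKM), and the strand setting of the quantification is not given, so reads of these pairs cannot be told apart.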

How the data were processed

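RNA was sequenced from CD4 T cells sorted by flow cytometry after a Percoll gradient, with a stranded total RNA kit for low input, per the labels' protocols. The authors deposited 1 FPKM value per gene and library, per the file headers. TopHat2 2.1.0, Cufflinks 2.2.1, bcl2fastq 2.17.1.14, Partek 7.0 and GRCm38 are named in the submitters' processing notes, without their roles; the annotation release and strand setting are not given in the sources used here. FPKM holds no counts, so depth is unknown and no counting error is attached. Of the gene IDs, 52399 matched a symbol. The 19288 genes averaging 1 FPKM or more were tested with limma 3.58.1 in R 4.3.3 (lmFit, eBayes with trend) on log2(FPKM + 1), in a single fit of the 4 group means to 12 libraries (8 residual degrees of freedom). P-values were adjusted by Benjamini-Hochberg within each of 7 comparisons. Rescaling used the 16018 tested genes above 0 in every library. The procedure was tested on simulated data. The 9 genes, the lists and the rules were chosen with earlier results of these data known. All 9 genes are named in every comparison; of other pathway genes, those past the threshold and the most abundant of each list; for each of the 9, the 3 genes with the highest Pearson r. Alternatives covered scaling, pseudocount, filter, weights, the replicate block and left-out libraries. The ratios to each CD4 T cell gene were added after the values had been seen.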

Additional observations from a re-analysis of the deposited data

How the results depend on the processing

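The averaged falls of Entpd1, P2rx7 and Art2b after IRI passed under every alternative run, and the averaged rise of Nt5e under all but the scaling to a common FPKM sum. Of the 9 genes, the number past the threshold in WT IRI against WT control was 4, and 2 with a common FPKM sum, with WT control 3, WT IRI 3 and KO control 1 left out together, and with only the groups compared; leaving out 1 library gave 2 to 4. In KO IRI against KO control it was 3, and 1 with a common sum, without a filter, and without those 3 libraries. It was 5 with protein-coding genes only and with array weights, and 0 with only the groups compared. With protein-coding genes only, 186 of 12054 genes were called higher there and 365 lower. With array weights these were 998 and 1766 of 19288 genes. Leaving out 1 library gave 1 to 4. For KO against WT the number was 0 in controls and 0 after IRI, and 3 and 1 with array weights. With those weights, 4987 of 19288 genes were called higher and 1369 lower in controls, and 742 and 75 after IRI. In controls leaving out 1 library gave 0 to 1. For KO against WT averaged it was 2, and 1 rescaled and without a filter, and 0 with quantile normalization, with a common sum, and without the 3 libraries, also when rescaled (added after seeing the data); leaving out 1 library gave 0 to 2. The causes were not tested.

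Some small differences, none of them called, reversed. KO against WT averaged became -0.063 (quantile) and -0.12 (common sum) for Adora2a, 0.053 (array weights) and 0.043 (without the 3 libraries) for Ada, -0.091 (rescaled), -0.17 (quantile) and -0.22 (common sum) for P2rx7, and -0.11, -0.13 and -0.23 in the same order for Slc29a1. With a common sum Adk after IRI became -0.33 in KO and -0.10 on average. Leaving out 1 library gave, for KO against WT averaged, -0.11 to 0.064 for Entpd1, -0.42 to 0.082 for Ada and -0.28 to 0.0061 for Cd38, and for Adk after IRI -0.033 to 0.37 in WT and -0.12 to 0.22 in KO.

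Pairing by replicate number was weak at most. Over 18 pairs with the same number, deviations from the group means correlated between -0.04 and 0.20, and 1 pair was over 0.1. That pair was WT control 3 with WT IRI 3, both among the libraries that stood apart. With 3 numbers to choose from, 7 of 12 libraries correlated best with their own number, so some pairing is not excluded. With the replicate block, 4 genes passed in WT IRI against WT control, 2 in KO IRI against KO control, 5 in the average over genotype and 2 in KO against WT averaged. None passed in KO against WT in controls, after IRI, or in the interaction.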
